A study of Mus musculus with 8 samples.

Results

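The Nanos and Pumilio genes encode RNA-binding repressors of the germ line, and 4 of them were examined here in Thy1-positive cells of the newborn mouse testis: Nanos3, Nanos2, Nanos1 and Pum2. Every array probe whose RefSeq accession belongs to 1 of these genes was taken, which gave 7 of the 41174 probes on the array and 4 of the 19096 genes that its probes name. Nanos3 had been seen to be lower in the mutant before the set was drawn up, so the genotype differences of the 4 genes are given as descriptions, without a test.

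Nanos proteins carry a pair of zinc fingers that grip RNA, and Pumilio proteins bind short sequence elements in the untranslated tails of messages. In fly and worm germ cells the 2 act as partners on the same messages. In mouse, NANOS2 and NANOS3 recruit the CCR4-NOT complex, which shortens poly(A) tails and so starts decay of the bound message, and DND1 helps to load them on their targets. NANOS3 keeps migrating primordial germ cells alive, and after birth it is made by spermatogonial progenitors, while NANOS2 is held in the most primitive spermatogonia and maintains the stem cell pool. Nanos1 is known mainly from brain and testis, and mice that lack it are fertile. PUM2 is made broadly, in somatic cells as well as germ cells.

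The mutant animals were labelled Glis3KO in the sample titles and Glis3KO2 in the source names, and Glis3KO2 is used here. The label stands for a knockout of Glis3, which encodes a GLI-similar transcription factor with zinc fingers. The other group was wild type (WT). All pups were C57BL/6, untreated, kept with their mothers and taken at postnatal day 4, and each genotype gave 4 samples of total RNA from cells selected for the surface protein THY1, which enriches spermatogonial stem and progenitor cells. The series' design text counts 3 testes of each genotype, and nothing in the labels states that the 4 samples came from separate animals, so the spread between them may be technical. The labels give neither the part of Glis3 that was removed nor the position of its probe relative to it.

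RNA was amplified and hybridised to 8 one-colour arrays, 1 per sample. All values below are log2 of the processed signal minus the 75th percentile of that array, which ranged from 243 to 533 signal units, and a negative value means a signal dimmer than that percentile. The signal of 1 probe cannot be set against that of another. Glis3 was at -1.98, -2.18, -1.18 and -1.32 in Glis3KO2 replicates 1 to 4, against -1.09, -1.01, 0.57 and 0.60 in WT replicates 1 to 4, with no overlap. The WT libraries did not lie together: the first principal component (32.3% of variance) set WT replicate 3, at 69.1, and WT replicate 4, at 60.04, apart from all others, none of which exceeded 3.85. The same WT replicates were dim at the second Thy1 probe (-1.79 and -1.53), where the Glis3KO2 arrays lay between 0.92 and 1.53 and WT replicates 1 and 2 at 0.91 and 1.79, and they were bright for germ cell genes. At the first Thy1 probe only WT replicate 4 was dim: the Glis3KO2 arrays read 2.21, 2.46, 1.36 and 1.47, against 1.55, 2.05, 1.33 and -0.03 in WT cells. The differences of the 4 genes and the mean differences of the gene lists are therefore also given without WT replicates 3 and 4. On both slides the Glis3KO2 arrays occupied positions 3 and 4 and the WT arrays positions 1 and 2, so slide position and genotype cannot be told apart.

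The 250 bases before the annotated start of the 2 Nanos genes with the larger mean differences are shown here, because GLIS factors bind a core with a run of 6 G, TGGGGGG, often followed by T. Sequences are from RefSeq, build GRCm38.p6, 5′ to 3′ on the strand of the gene. Capitals mark each match to TGGGGGG, read on either strand. The Nanos3 window is chr8:84176553-84176802 on the minus strand, and the Nanos2 window is chr7:18987274-18987523 on the plus strand.
Nanos3: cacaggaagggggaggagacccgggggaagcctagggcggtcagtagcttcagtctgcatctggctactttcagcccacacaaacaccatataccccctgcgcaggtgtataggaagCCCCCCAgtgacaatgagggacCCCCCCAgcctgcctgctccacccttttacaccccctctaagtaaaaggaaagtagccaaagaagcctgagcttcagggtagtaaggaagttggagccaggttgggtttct
Nanos2: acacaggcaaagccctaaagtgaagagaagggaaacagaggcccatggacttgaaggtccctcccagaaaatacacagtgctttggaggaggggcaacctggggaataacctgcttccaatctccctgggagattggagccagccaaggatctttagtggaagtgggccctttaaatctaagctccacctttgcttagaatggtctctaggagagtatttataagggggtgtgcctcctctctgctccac

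The Nanos3 window held 2 matches to TGGGGGG, both on the strand opposite to the gene, at 133 to 127 and at 111 to 105 bases before the start. The Nanos2 window held 0, as did the Nanos1 window on chromosome 19 and the 3 Pum2 windows on chromosome 12. Among 32851 windows of the same length, 2519 (7.67%) held at least 1 match. Windows with 2 matches were not counted apart. The longer form TGGGGGGT, which contains the shorter one, was in 446 windows (1.36%) and in 0 of the 6 windows of the 4 genes. The shorter form was chosen with these sequences in view. A match describes the letters only, and binding was not measured.

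Nanos3, the survival factor of early germ cells and the gene seen lower beforehand, separated the genotypes. Its only probe read -2.19, -2.39, -1.91 and -1.71 in Glis3KO2 replicates 1 to 4, against -1.34, -0.83, -0.90 and -0.50 in WT replicates 1 to 4. Every Glis3KO2 array was dimmer than every WT array, with a gap of 0.37 between the brightest Glis3KO2 array and the dimmest WT array. The means were -2.05 ± 0.30 in Glis3KO2 cells and -0.89 ± 0.34 in WT cells (SD, n = 4 each), a log2 difference of -1.16 (SE 0.26, limma), or 2.23-fold lower in Glis3KO2 cells. In linear units the probe gave 81.9, 87.4, 66.7 and 104.4 in Glis3KO2 cells, against 140.0, 299.8, 130.7 and 191.9 in WT cells. The signal was well above background on all 8 arrays, and the spot was 2.07 to 5.33 times as bright as its local background.

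With every Glis3KO2 array below every WT array, the Nanos3 difference had to be negative in every subset of arrays. Only its size could vary. The difference was -0.93 on slide 1 and -1.38 on slide 2, and -1.21 over replicates 1 and 2 against -1.11 over replicates 3 and 4. Same-numbered arrays differed by -0.85, -1.56, -1.02 and -1.21. Without WT replicates 3 and 4 the difference was -0.97 (SE 0.31). Such a separation, with every Glis3KO2 array below every WT array, was met at 811 of the 36429 kept probes (2.23%) and at 455 of 17513 genes (2.60%). Because Nanos3 was chosen on this contrast, nothing is read from its place among them.

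Nanos2, which maintains the stem cell pool in mouse, had a mean difference of similar size that was carried unevenly by the arrays. Its only probe read -3.05, -2.69, -3.12 and -3.21 in Glis3KO2 replicates 1 to 4, against -2.88, -2.25, -0.94 and -2.01 in WT replicates 1 to 4. The groups overlapped: Glis3KO2 replicate 2 lay above WT replicate 1, and the other 3 Glis3KO2 arrays lay below every WT array. The means were -3.02 ± 0.23 in Glis3KO2 cells and -2.02 ± 0.81 in WT cells (SD, n = 4 each), a log2 difference of -0.998 (SE 0.37, limma).

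The brightest WT array decided much of the Nanos2 difference. It was -0.64 without WT replicate 3, and -0.45 (SE 0.30) without WT replicates 3 and 4. Replicates 1 and 2 differed by -0.31 and replicates 3 and 4 by -1.69, so the sign was shared and the size was not. Same-numbered arrays differed by -0.17, -0.44, -2.18 and -1.20, all lower in Glis3KO2 cells. The probe was well above background on all 8 arrays, but the spot was only 1.48 to 2.97 times its local background. In linear units it gave 45.2, 71.0, 28.9 and 36.9 in Glis3KO2 cells, against 48.4, 111.7, 126.9 and 67.3 in WT cells.

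Nanos1, the family member that mice can lose and stay fertile, showed no mean difference beyond the spread of its arrays. The brighter of its 2 probes read -0.39, -0.75, 0.09 and 0.02 in Glis3KO2 replicates 1 to 4, against -1.24, -0.75, 0.26 and 1.04 in WT replicates 1 to 4. The 4 Glis3KO2 arrays lay within the range of the WT arrays, in which replicates 1 and 4 were the extremes. The means were -0.26 ± 0.39 in Glis3KO2 cells and -0.17 ± 1.02 in WT cells (SD, n = 4 each), a difference of -0.08 (SE 0.46, limma). The sign turned when single arrays were left out: it was 0.06 without WT replicate 3, 0.32 without WT replicate 4 and 0.08 without Glis3KO2 replicate 2. Without WT replicates 3 and 4 together it was 0.74 (SE 0.34). The dimmer Nanos1 probe read -3.31, -4.28, -4.04 and -3.28 in Glis3KO2 cells, against -3.82, -3.85, -5.07 and -2.48 in WT cells, with a difference of 0.08 (SE 0.50, from the fit over all kept probes). It was not well above background in WT replicate 3, and across the 8 arrays the 2 probes followed each other weakly (Pearson r = 0.34).

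Pum2, the Pumilio protein of the set, differed little between genotypes at any of its probes. The brightest of its 3 probes read 2.40, 2.66, 2.54 and 2.87 in Glis3KO2 replicates 1 to 4, against 2.54, 2.26, 2.46 and 2.37 in WT replicates 1 to 4. The groups overlapped, with 2 Glis3KO2 arrays above the highest WT array, and the difference was 0.21 (SE 0.21, limma), and 0.21 (SE 0.27) without WT replicates 3 and 4. The second probe read 1.89, 1.90, 1.91 and 1.87 in Glis3KO2 cells, against 1.38, 1.66, 1.55 and 1.76 in WT cells. There every Glis3KO2 array was above every WT array, by a mean of 0.30 (SE 0.21), a separation met at 386 of the 36429 kept probes (1.06%). The third probe read 0.15, 0.56, 0.68 and 0.24 in Glis3KO2 cells, against 0.53, 0.42, 0.01 and 0.23 in WT cells, and its groups overlapped (difference 0.11, SE 0.24). All 3 differences were positive, but the probes did not follow each other from array to array (pairwise Pearson r between 0.12 and 0.28, n = 8 arrays), so the separation at the second probe was not shared by the others.

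**Figure D1:**
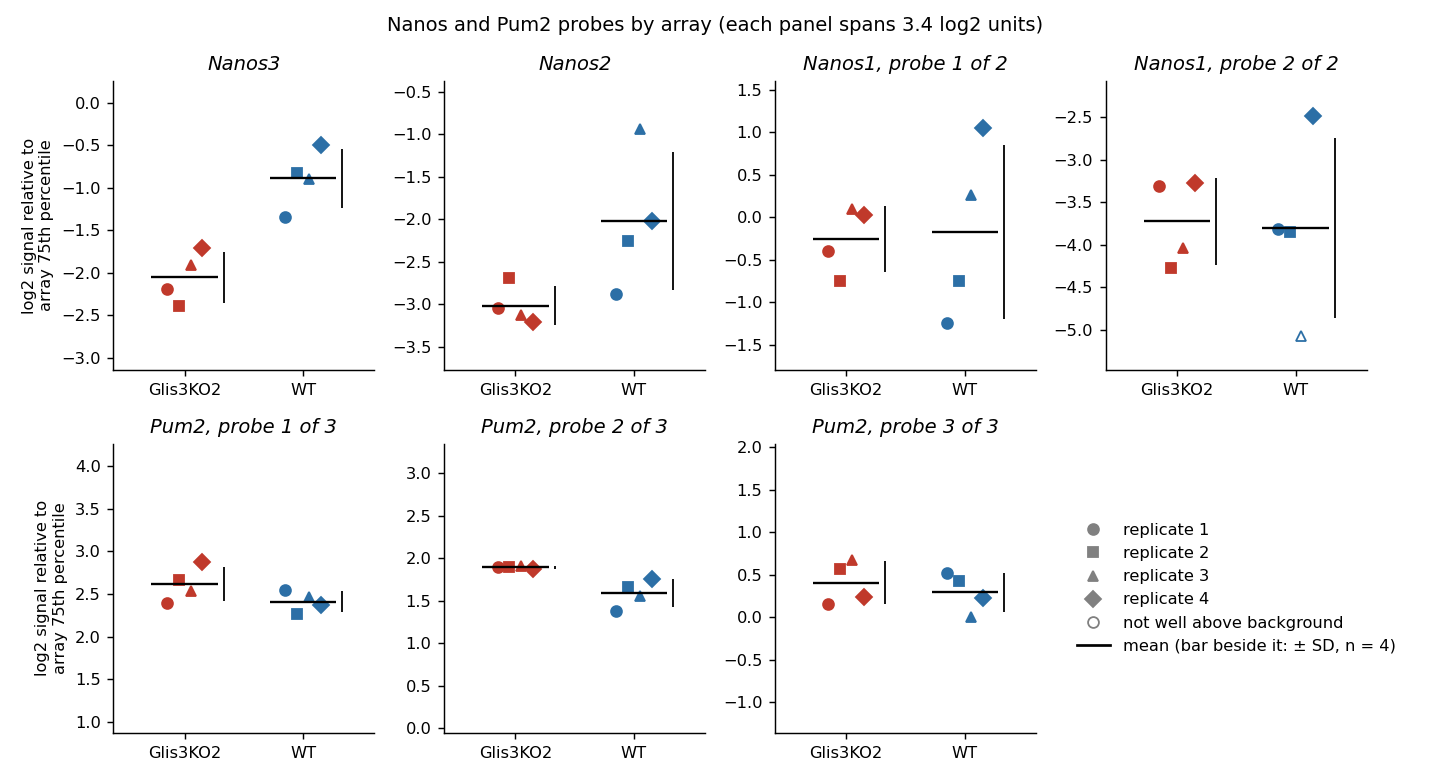
Log2 signal minus that of the 75th percentile on the same array (vertical axes) for each of the 7 probes, with Glis3KO2 arrays left of WT arrays. Each point is 1 array and the bars are means with SD; Nanos3 separates the genotypes with a gap of 0.37, Nanos2 and Nanos1 spread mainly in WT, and the second Pum2 probe lies within 1.87 to 1.91 in Glis3KO2.

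Against the whole array, these differences were not called. Of 17513 genes tested with limma, 0 passed an adjusted p of 0.05 (0%), and the smallest adjusted p was 0.0675. At an unadjusted p under 0.05, 831 genes (4.75%) were lower in Glis3KO2 cells and 377 (2.15%) were higher. The median difference over all genes was -0.08, and 59.2% of genes had a lower mean in Glis3KO2 cells. Of the 4 genes described here, 3 had a lower mean in Glis3KO2 cells.

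In a bulk sample, fewer germ cells and less RNA per germ cell cannot be told apart, so the Nanos values were set beside those of general germ cell genes. Of 18 listed genes, 16 were measured, and all 16 had a lower mean in Glis3KO2 cells, with a median difference of -0.81 and 0 passing the adjusted p. At an unadjusted p under 0.05, 6 of the 16 were lower, beside 4.75% of all genes. Differences ranged from -1.45 (SE 0.41) for Tdrd9, a helicase of the piRNA pathway, to -0.02 (SE 0.52) for Dppa4, a chromatin-associated gene of early germ cells. Ddx4, the RNA helicase used to mark germ cells, was at 1.97, 1.84, 2.02 and 2.07 in Glis3KO2 cells, against 1.80, 2.22, 3.48 and 4.17 in WT cells. The mean of the list, each gene centred over the arrays, was -0.58, -0.83, -0.04 and -0.07 in Glis3KO2 replicates 1 to 4, against -0.54, -0.28, 0.93 and 1.40 in WT replicates 1 to 4. WT replicates 3 and 4 were high and the other WT arrays lay among the Glis3KO2 arrays: the difference of -0.76 became 0.03 without those 2 arrays.

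Relative to this germ cell mean, the separation at Nanos3 was lost. After this subtraction a full separation with Glis3KO2 cells lower was rare, at 9 of 17513 genes (0.0514%). Before it, the count was 455 (2.60%). Nothing particular to Nanos3 is therefore read from the loss. Nanos3 minus the list mean was -1.61, -1.56, -1.88 and -1.64 in Glis3KO2 cells, against -0.80, -0.55, -1.83 and -1.91 in WT cells. WT replicates 1 and 2 stayed above every Glis3KO2 array, whereas WT replicates 3 and 4 lay below them or among them, and the difference was -0.40 (SE 0.36). Nanos2 gave -0.24 (SE 0.46) on this scale. Over replicates 3 and 4 Nanos3 differed by -1.11 and the list mean by -1.22, and over replicates 1 and 2 Nanos3 differed by -1.21 and the list mean by -0.29. That contrast between pairs of replicates was not tested.

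Nanos1 turned positive on the same scale. The subtracted list mean differed by -0.76, so the difference of every gene was raised by as much. Before the subtraction Nanos1 and the median of all genes were both at -0.08. The brighter probe minus the list mean was 0.19, 0.08, 0.13 and 0.09 in Glis3KO2 cells, against -0.70, -0.47, -0.67 and -0.36 in WT cells. The Glis3KO2 arrays lay within a narrow band and all above the WT arrays, with a difference of 0.67 (SE 0.09). On this scale 504 of 17513 genes (2.88%) had every Glis3KO2 array above every WT array, and 9 (0.0514%) had every Glis3KO2 array below. The dimmer Nanos1 probe, near background, gave 0.84 (SE 0.67) with overlapping groups. Pum2 gave 0.97 (SE 0.51), against 0.21 before the subtraction. The full separation at the brighter Nanos1 probe was not met relative to the list of undifferentiated spermatogonia, given next.

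**Figure D2:**
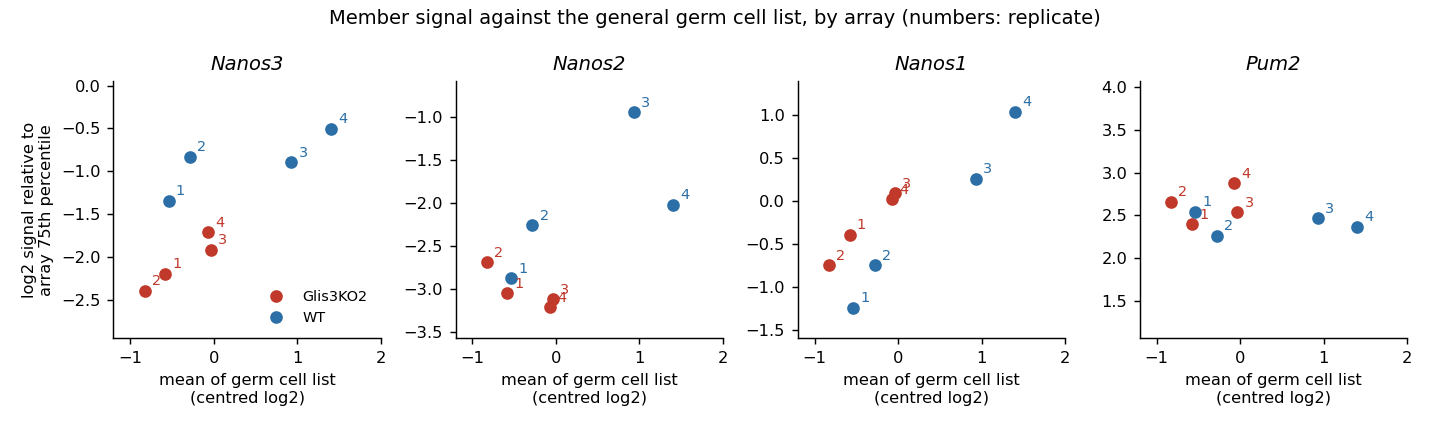
Log2 signal of each gene, minus the 75th percentile of its array (vertical axis), against the centred mean of 16 general germ cell genes (horizontal axis, log2), with 1 point per array and replicate numbers beside the points. WT replicates 3 and 4 lie to the right at 0.93 and 1.40, Nanos1 follows the germ cell mean with the Glis3KO2 arrays offset above the WT arrays, and Nanos3 in WT replicates 1 and 2 lies above the Glis3KO2 arrays at a similar germ cell mean.

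Genes of undifferentiated spermatogonia, the cells in which NANOS2 and NANOS3 work after birth, had a similar median. Of 18 listed, 16 were measured, 15 had a lower mean in Glis3KO2 cells and 1 a higher one, and the median difference was -0.80, with 0 passing the adjusted p. At an unadjusted p under 0.05, 6 of the 16 were lower, the same count as for the general germ cell list and beside 4.75% of all genes. Bcl6b, a transcription factor induced by GDNF, was at -0.57, -0.58, 0.31 and -0.05 in Glis3KO2 cells, against 1.19, 0.30, 1.68 and 1.43 in WT cells (difference -1.37, SE 0.34, limma adjusted p = 0.697). Tcl1, a co-activator of AKT, differed by -0.96 (SE 0.28), Cdh1, which encodes E-cadherin, by -1.02 (SE 0.32), and the transcription factor Pou3f1 by -0.84 (SE 0.29). The list mean differed by -0.70, and by -0.23 without WT replicates 3 and 4. Relative to this list, a scale added after the data had been seen, Nanos3 differed by -0.46 (SE 0.24) and Nanos2 by -0.30 (SE 0.27). The brighter Nanos1 probe differed by 0.62 (SE 0.32) on it, with overlapping groups and 2 Glis3KO2 arrays above every WT array.

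The partners that carry out repression had smaller differences. All 11 subunits of the CCR4-NOT deadenylase on the list were measured; 8 had a lower mean in Glis3KO2 cells and 3 a higher one, with a median of -0.19, and 0 passed at an adjusted or unadjusted p of 0.05. Cnot1, the scaffold to which the N terminus of NANOS proteins binds, differed by -0.30 (SE 0.33), and the catalytic subunit Cnot7 by -0.49 (SE 0.33). Dnd1, the loading partner, was at -1.05 ± 1.27 in Glis3KO2 cells and -0.79 ± 0.79 in WT cells (SD, n = 4 each), a difference of -0.25 (SE 0.61). Its spread within a genotype exceeded that difference. The mean of the CCR4-NOT list differed by -0.15, and by 0.04 without WT replicates 3 and 4.

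Among 20 genes of mRNA decay and P-bodies, all measured, 10 had a lower and 10 a higher mean in Glis3KO2 cells, with a median of -0.04. Tob2, an anti-proliferative adaptor that links CCR4-NOT to messages, was at 1.56, 1.53, 1.48 and 1.18 in Glis3KO2 cells, against 0.60, 0.61, -0.05 and 0.65 in WT cells. Every Glis3KO2 array was above every WT array, as in 158 of 17513 genes (0.902%). The difference was 0.99 (SE 0.24), with an unadjusted p of 0.00185 and a limma adjusted p of 0.697, so it did not pass the test over all genes. Its paralog Tob1 differed by -0.17 (SE 0.28). The list mean differed by 0.01, and by 0.12 without WT replicates 3 and 4.

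Of 16 relatives of Pumilio and other translational regulators of germ cells, 15 were measured, 7 with a lower and 8 with a higher mean in Glis3KO2 cells, and the median was 0.02. Pum3, a nucleolar relative, differed by 0.06 (SE 0.28). Dazl, an RNA-binding activator of germ cell messages, differed by -0.31 (SE 0.47). Cpeb4, a regulator of poly(A) tail length, differed by 0.66 (SE 0.30) at an unadjusted p of 0.0492 and a limma adjusted p of 0.697. Lin28a, an RNA-binding protein of undifferentiated spermatogonia, had the lowest difference at -1.15 (SE 0.71), with a spread of 1.63 in WT cells (SD, n = 4). The sign of the list mean turned with the arrays used: it differed by -0.09 over all arrays, by 0.41 without WT replicates 3 and 4, by 0.29 over replicates 1 and 2 and by -0.46 over replicates 3 and 4.

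Messages that NANOS2 is known to restrain in mouse, with other genes of meiotic entry, differed in both directions. Of 15 listed, 13 were measured, 8 with a lower and 5 with a higher mean in Glis3KO2 cells. Their median was -0.17, and 0 passed at an adjusted or unadjusted p of 0.05. Stra8, the retinoic acid target that opens meiosis, was at 0.31, 0.15, 0.04 and 1.19 in Glis3KO2 cells, against 0.55, 0.31, 1.27 and 1.83 in WT cells, with overlapping groups (difference -0.57, SE 0.38). Taf7l, a germ cell relative of a general transcription factor subunit, differed by -0.32 (SE 0.47), and Dmrtb1 by 0.42 (SE 0.28). The list mean was -0.12, -0.46, 0.39 and 0.07 in Glis3KO2 cells, against -0.73, -0.47, 0.35 and 0.97 in WT cells. In both genotypes replicates 3 and 4 lay above replicates 1 and 2, and without WT replicates 3 and 4 the difference of -0.06 became 0.57.

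**Figure D3:**
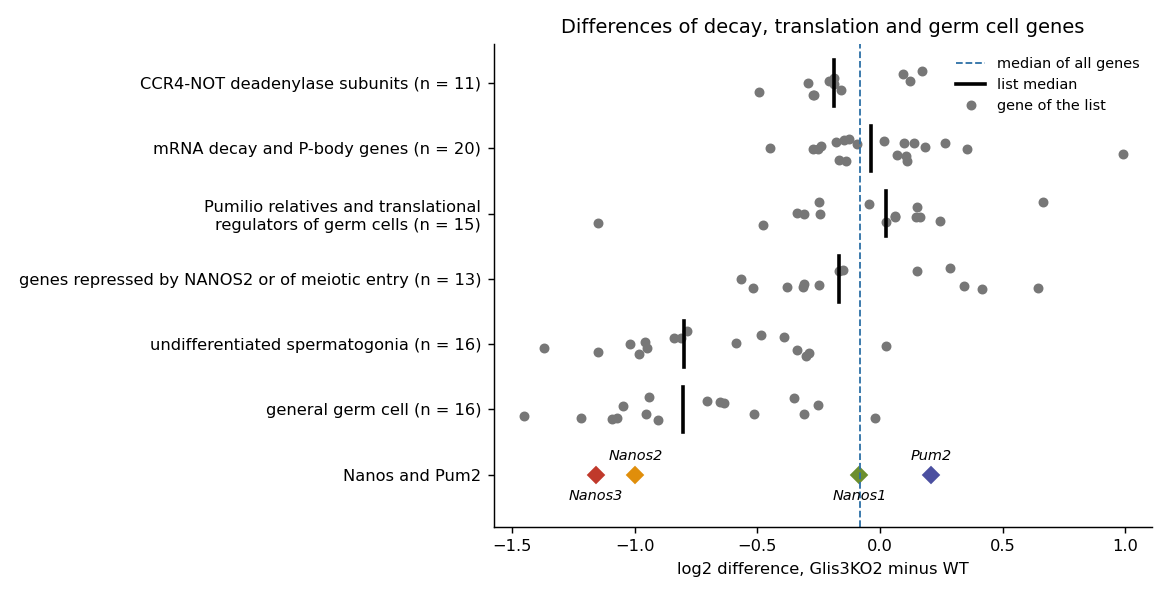
Log2 difference between Glis3KO2 and WT (horizontal axis) of each measured gene in 6 lists, with the median of each list marked and the 4 Nanos and Pumilio genes beside them. The undifferentiated and general germ cell lists have medians of -0.80 and -0.81, to the right of Nanos3 and Nanos2 and to the left of Nanos1 and Pum2, while the other 4 lists have medians between -0.19 and 0.02; the dashed line is the median of all genes.

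Markers of other testis cells differed in mean between the genotypes too. All 11 measured markers of interstitial stroma and all 8 of peritubular and smooth muscle had higher means in Glis3KO2 cells, with medians of 0.96 and 1.10. The stromal mean ranged from -0.02 to 1.84 in Glis3KO2 cells and from -1.18 to 0.84 in WT cells, with WT replicates 3 and 4 the lowest. Without those 2 arrays the mean difference of the stromal list was 0.45, against 1.07 with them, and that of the muscle list was 0.46, against 1.13. The medians were 0.43 for 10 macrophage markers, 0.15 for 6 lymphocyte markers, 0.05 for 8 endothelial markers, -0.26 for 12 Sertoli cell markers and -0.49 for 5 Leydig cell markers. Leaving out WT replicates 3 and 4 turned the sign of 3 list means: macrophage markers differed by -0.25 without them and by 0.37 with them, lymphocyte markers by -0.30 and 0.16, and endothelial markers by -0.25 and 0.17. The Sertoli list differed by -0.02 without them and by -0.37 with them, and the Leydig list by -0.83 and -0.40. Markers counted as measured only if a probe was well above background on at least 4 arrays, and 0 of them passed the adjusted p. The part of these cells in the Nanos values was not tested.

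The variation of Nanos3 and of Nanos2 among arrays of a genotype was most like that of different genes. The 5 genes with annotated symbols whose deviations from the genotype mean were most like those of Nanos3 over the 8 arrays were Kir3dl1 (Pearson r = 0.992), Tktl1 (0.980), Dnaaf5 (0.977), Arhgef15 (0.976) and Thoc2 (0.973). For Nanos2 they were Oxsr1 (0.986), Ipo8 (0.982), Lhfpl4 (0.980), Mrps30 (0.980) and Ckmt1 (0.968). Nanos3 and Nanos2 themselves gave r = 0.16, and Nanos3 and Nanos1 gave 0.83. With the mean of the general germ cell list, r was 0.79 for Nanos3, 0.51 for Nanos2, 0.99 for Nanos1 and 0.06 for Pum2. With that of the undifferentiated list, r was 0.58, 0.77, 0.90 and -0.003 in the same order. A large r was not limited to the germ cell lists. With endothelial markers r was -0.81, -0.68, -0.79 and -0.04, and with Sertoli cell markers 0.58, 0.20, 0.62 and 0.68, in the same order. For Nanos3 and for Nanos2, 74 of 17506 genes reached r = 0.9 on these 8 points, which share slides and sample makeup, so the ranking is a description of these arrays.

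**Figure D4:**
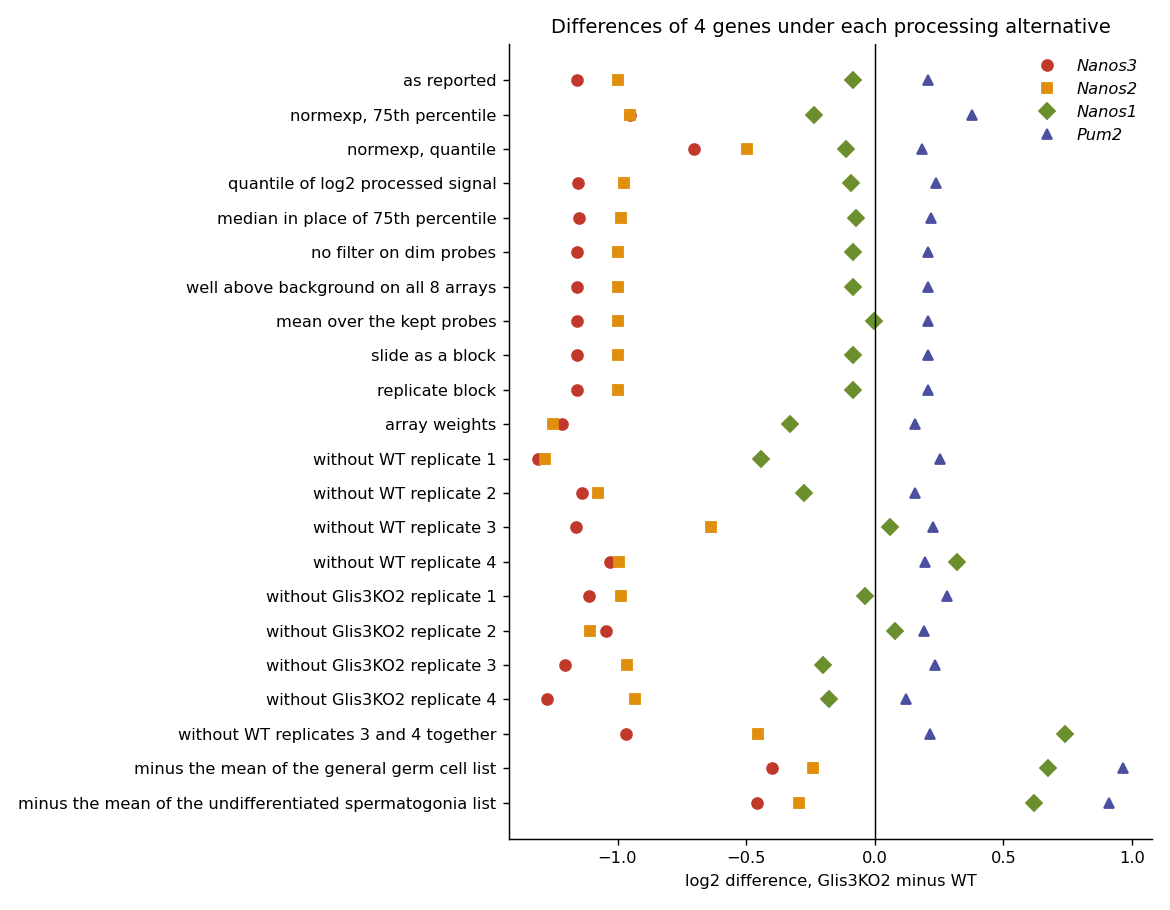
Log2 difference between Glis3KO2 and WT (horizontal axis) of Nanos3, Nanos2, Nanos1 and Pum2 as reported and under 21 alternatives of processing or sample set (rows). Nanos3 and Nanos2 stay below 0 and Pum2 above 0 in all 21, Nanos1 crosses 0 in 6, and scaling to either germ cell list brings Nanos3 to -0.40 and -0.46. The filters, the mean over probes and the blocks leave Nanos3 and Nanos2 unchanged.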

How the data were processed

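RNA of 4 Glis3KO2 and 4 WT samples was measured on Agilent arrays. Per the file headers, the authors' scanner files were made with Feature Extraction 12.0.0.7 (probe annotation on mm9), and each deposited intensity is a linear, background-subtracted signal per spot. The deposited value table equalled that signal on 100% of spots. From it, log2 of the signal was scaled to the 75th percentile of all non-control spots on that array, and the mean over a probe's spots was taken without those flagged as outliers (73 to 109 on an array). Between 86.0% and 90.3% of spots were well above background and 0 were saturated. Precision is set by how few arrays there are.

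Probes were named by RefSeq accession in a gene table of GRCm38.p6: 28223 of 41174 matched 1 gene and 12951 none. Probes well above background on at least 4 arrays were kept, and the brightest stood for its gene. Differences and SEs come from lmFit and eBayes of limma (version 3.58.1, under R 4.3.3) on genotype alone. P-values were adjusted by Benjamini-Hochberg over every gene kept, and 0.05 was the threshold. SEs relative to a list are from the 4 arrays of each genotype. The fit was tested on simulated data with independent noise and shifts larger than the differences of the 4 genes. That test does not cover differences of their size or structure shared between arrays.

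The members, gene lists and alternatives were chosen with earlier results of these data known. Members are given with every probe, lists by counts, median, range and up to 4 genes of smallest p, with further examples by role. Listed genes without a kept probe (Trim71, Piwil4, Rnf17, Sycp3, Sohlh1, Shisa6, Insl3, T and Fbln5) were not analysed here, and the values of 1 listed gene are not reported here. Same-numbered arrays of the 2 genotypes deviated together (r = 0.16, 0.34, 0.18 and 0.13 across genes, which are not independent), all over 0.1, so the replicate number was also fitted as a block. Glis3KO2 replicate 4 with WT replicate 3 (0.14) and Glis3KO2 replicate 3 with WT replicate 4 (0.12) were over it too, so the numbers of replicates 3 and 4 were not singled out. Replicates 1 and 3 were on slide 1 and 2 and 4 on slide 2, each scanned once. Alternatives were other background corrections, scalings, filters and probe rules, blocks, array weights, arrays left out, and scaling to germ cell lists. The normexp correction used median spot and background intensities with an offset of 50.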

Additional observations from a re-analysis of the deposited data

How the results depend on the processing

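The sign of the Nanos3, Nanos2 and Pum2 differences was the same under all 21 alternatives and that of Nanos1 under 15. These counts hold alternatives that could not change the result. The filters, the mean over probes and the blocks left Nanos3 at -1.16 and Nanos2 at -0.998. Leaving out arrays could not turn the sign of Nanos3, as its groups did not overlap. Leaving out 1 array at a time gave -1.31 to -1.03 for Nanos3, -1.28 to -0.64 for Nanos2, -0.44 to 0.32 for Nanos1 and 0.12 to 0.28 for Pum2. The same fits called 0 genes, and at an unadjusted p under 0.05 they gave 448 to 1602 lower and 215 to 806 higher genes, the extremes being the fits without WT replicate 3 (448 and 215) and without WT replicate 2 (1602 and 806). Without WT replicate 4, 539 genes were lower. Without WT replicates 3 and 4, Nanos1 was at 0.74 and 411 genes were lower. Normexp with quantile scaling moved Nanos3 to -0.70 and Nanos2 to -0.49, and normexp with the 75th percentile moved Pum2 to 0.38 while the median of all genes moved to -0.22. Quantile scaling of the processed signal called 1 gene, Gm16702 (-2.63, limma adjusted p = 0.0245), named after its value was seen. Among genes at an unadjusted p under 0.05, 68.8% were lower as reported, against 56.6% under normexp with quantile scaling and 53.4% without WT replicates 3 and 4. With array weights 1518 genes were lower and 796 higher. Scaling to the general germ cell list moved Nanos3 to -0.40, Nanos2 to -0.24 and Pum2 to 0.97, and scaling to the undifferentiated list, chosen after seeing the data, moved them to -0.46, -0.30 and 0.91. The cause of these moves was not tested.

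With a replicate block, the 4 differences were the same (Nanos3 -1.16, SE 0.22) and 0 genes were called, while 1108 were lower and 769 higher at an unadjusted p under 0.05 (831 and 377 without it). Signal limits Nanos2 and the dimmer Nanos1 probe most, whose spots were 1.48 to 2.97 and 1.14 to 1.85 times their local background.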
